A study of Capra hircus with 21 samples.

Results

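MOS and FBXO43, 2 genes whose products hold the mature egg at metaphase of the second meiotic division, were followed through oocytes and preimplantation embryos of the goat (Capra hircus). They were taken from the deposited table by gene symbol, and each matched 1 of its 19040 gene rows. RNA sequencing covered oocytes that had matured in vivo and embryos at 6 stages: 2-cell, 4-cell, 8-cell, 16-cell, morula and blastocyst. With the oocyte this makes 7 stages, each with 3 libraries, lettered A to C, or 21 in all. The labels name no treatment, allele or strain, and do not say how many oocytes or embryos a library held or whether the 3 libraries of a stage stem from separate animals. All p-values below reflect only how far these samples scatter, and that scatter may be technical.

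A mature mammalian egg waits for the sperm with its chromosomes aligned on the second meiotic spindle. MOS is a kinase that starts a kinase cascade through MAP2K1 (MEK1) to the RSK kinases, and FBXO43 (also called EMI2) is an inhibitor of the anaphase-promoting complex, the ubiquitin ligase that destroys cyclin B and securin. MOS signalling acts on FBXO43, so that cyclin B with CDK1 stays active. This lasts until the calcium signal of fertilization leads to the destruction of FBXO43 and lets meiosis finish. Both proteins are known from the egg, and both messengers belong to the maternal store that the egg builds up before it matures.

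MOS lay on chromosome 14 at positions 58781192 to 58782215 of the plus strand in the coordinates of the deposited table, a span of 1023 bp. FBXO43 lay on the minus strand of the same chromosome at 17958891 to 17967944, a span of 9053 bp, 40.8 Mb from MOS. Both were annotated as protein-coding genes and neither overlapped another gene of the table. The sources used here name neither the genome build nor the strandedness of the libraries. Levels are given in RPKM (reads scaled to gene length and to library size). No label says how the length was taken. Nearly all low values were multiples of a single step after 0.01 was taken off and the full gene span, introns included, was used as the length, so both are inferred from the values, and all read numbers below rest on this. Values not divided by the span are called RPM (reads scaled to library size only). Read numbers could be recovered from these values: all 42 values of MOS and FBXO43 were whole numbers of reads within 0.05 of a read. Libraries 16-cell C and morula C stood apart from their stage mates with more of both transcripts, and 2-cell B with more MOS, so results that rest on them are given with and without them.

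Both messengers were abundant from the oocyte to the 8-cell stage, had fallen at the 16-cell stage and were nearly gone in blastocysts. MOS stood at 30.6 ± 8.56 RPKM in oocytes, at 35.1 ± 4.64 RPKM in 8-cell embryos and at 9.32 ± 3.85 RPKM at the 16-cell stage (mean ± SD, n = 3 libraries here and for every stage mean below). FBXO43 stood at 9.30 ± 1.41 RPKM in oocytes, 12.49 ± 2.21 RPKM at the 8-cell stage and 1.35 ± 0.983 RPKM at the 16-cell stage. In blastocysts the means were 0.0250 ± 0.0140 RPKM for MOS and 0.0175 ± 0.00381 RPKM for FBXO43, against the added 0.01. In a moderated F test with limma over the 6 consecutive comparisons, the adjusted p was 2.68e-07 for MOS and 3.63e-08 for FBXO43. Such a change at some stage was common, since 93.8% of the 4253 genes tested passed that test.

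**Figure D1:**
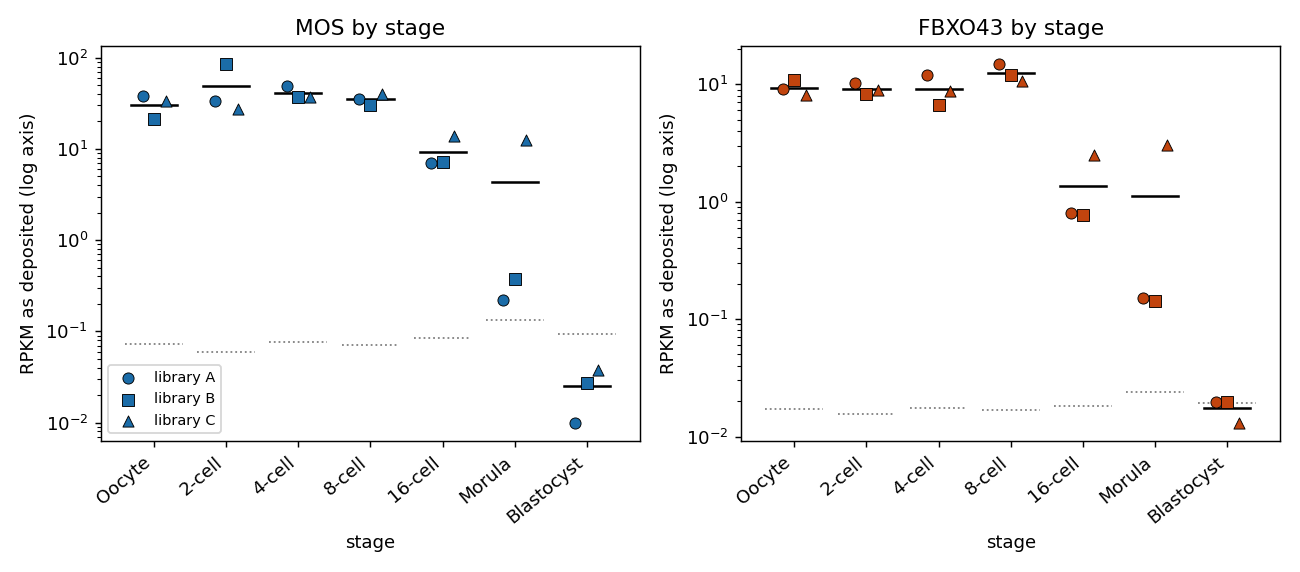
RPKM as deposited (log axis) of MOS (left) and FBXO43 (right) by stage, with 1 point per library, the shape giving the library letter, and a black bar for the mean of the 3 libraries. The dotted line is the value of 3 reads, the added 0.01 included, in the least deeply sequenced library of the stage. All 12 libraries up to the 8-cell stage lie at or above 21.04 RPKM for MOS and 6.68 RPKM for FBXO43, 16-cell C and morula C lie above their stage mates, and in blastocysts all MOS points lie below the dotted line and the FBXO43 points near or below it.

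In oocytes MOS was at 37.6, 21.04 and 33.2 RPKM in libraries A, B and C. At the 2-cell stage it was at 33.8, 85.5 and 27.1 RPKM, and at the 4-cell stage at 48.8, 36.9 and 37.3 RPKM. 2-cell B stood apart from its stage mates. The other 2-cell libraries lay below every 4-cell library, and the oocyte range overlapped both stages. At the 8-cell stage MOS was at 35.1, 30.4 and 39.7 RPKM, inside the range of the 3 earlier stages. These levels rested on 1009 to 5343 reads per library. In 2-cell B MOS was 2.53-fold above the higher of the other 2-cell libraries, a gap of at least 2-fold that 2.40% of the 4253 genes tested showed in that library. FBXO43 in 2-cell B was 0.809 of the higher of its stage mates.

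FBXO43 was at 9.05, 10.8 and 8.04 RPKM in the 3 oocyte libraries. It was at 10.2, 8.25 and 9.005 RPKM at the 2-cell stage and at 11.995, 6.68 and 8.72 RPKM at the 4-cell stage. No library stood apart as 2-cell B did for MOS, and the stages overlapped. At the 8-cell stage FBXO43 was at 14.9, 11.97 and 10.6 RPKM, with 1 library (8-cell A) above all earlier ones. Counts were 3440 to 7546 reads per library. Over the 12 libraries from oocyte to 8-cell, FBXO43 had a median of 9.62 RPKM and MOS one of 36.0 RPKM.

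Between these early stages neither gene passed the test. A called gene is one with an adjusted p below 0.05 in limma (Benjamini-Hochberg, over the 4253 genes tested) and a log2 fold change of (RPKM + 1) of at least 1 in size. MOS differed by 0.52 (SE 0.63, adjusted p = 0.703) on that scale from oocyte to 2-cell, by -0.08 (adjusted p = 1) from 2-cell to 4-cell and by -0.22 (adjusted p = 0.978) from 4-cell to 8-cell. FBXO43 differed by -0.02 (SE 0.38, adjusted p = 1), -0.03 (adjusted p = 1) and 0.43 (adjusted p = 0.679) in the same comparisons. The share of all genes called was 4.77%, 0% and 0.682% in turn. From 2-cell to 4-cell limma called no gene, with 161 genes at an unadjusted p below 0.05 and a lowest adjusted p of 0.329. Without 2-cell B the MOS difference was 0.03 from oocyte to 2-cell and 0.41 from 2-cell to 4-cell.

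Across the whole early interval, from oocyte to 8-cell, the difference was 0.22 for MOS (95% interval -1.09 to 1.54, adjusted p = 0.878) and 0.39 for FBXO43 (-0.41 to 1.18, adjusted p = 0.541). Differences anywhere inside these intervals are compatible with these libraries, so the tests do not show that the levels were equal. In this comparison 11.5% of all genes were called. The median gene moved by 0.15, and with median-ratio scaling of the libraries by 0.01.

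From 8-cell to 16-cell both messengers fell. MOS was at 6.94, 7.26 and 13.8 RPKM in 16-cell A, B and C, on 363, 295 and 605 reads. FBXO43 was at 0.800, 0.771 and 2.49 RPKM, on 366, 274 and 964 reads. For each gene every 16-cell library lay below every 8-cell library, and 16-cell C was the highest of its stage. The log2 fold change was -1.86 (SE 0.63, adjusted p = 0.0166) for MOS and -2.58 (SE 0.38, adjusted p = 1.97e-05) for FBXO43. In this comparison 35.3% of all genes were called and 15.9% of all genes were called lower, so a fall here was frequent. The MOS call was lost without 16-cell A (-1.70, adjusted p = 0.0602), without 16-cell B (-1.73, adjusted p = 0.0553) and with a pseudocount of 0.1 (-1.97, adjusted p = 0.0547), whereas FBXO43 was called in all 31 alternatives tried.

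Library 16-cell C kept more of both messengers than 16-cell A and B. MOS in 16-cell C was 1.90-fold, and FBXO43 3.11-fold, above the higher of the other 16-cell libraries. The same direction was widespread: of the 759 genes called lower from 8-cell to blastocyst with an 8-cell mean of at least 5 RPKM, 73.4% were above both mates in 16-cell C, with a median ratio to the higher mate of 1.60. Without 16-cell C the fall was -2.15 (adjusted p = 0.0144) for MOS and -2.90 (adjusted p = 1.10e-05) for FBXO43.

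The morula libraries split. MOS was at 0.219, 0.376 and 12.47 RPKM in morula A, B and C, on 12, 9 and 794 reads. FBXO43 was at 0.152, 0.143 and 3.03 RPKM, on 72, 29 and 1703 reads. Morula C thus lay inside the 16-cell range for MOS and above it for FBXO43, and morula A and B lay below every 16-cell library. MOS in morula C was 33.1-fold and FBXO43 19.96-fold above the higher of the other morula libraries, where the median of the 759 falling genes was 1.92-fold and 47.7% of them reached 2-fold.

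From 16-cell to morula the log2 fold change was -1.81 (SE 0.63, adjusted p = 0.0410) for MOS, which was called, and -0.36 (SE 0.38, adjusted p = 0.535) for FBXO43, which was not. The libraries overlapped for both genes because of morula C. In this comparison 16.1% of all genes were called and 4.66% of all genes were called lower. The MOS call was fragile: it was lost with a pseudocount of 5 (-0.83, adjusted p = 0.160), without a filter on level (adjusted p = 0.127), and when 8-cell A or B, any 16-cell library, morula A or morula B was left out, with adjusted p-values up to 0.249. Without 16-cell C the FBXO43 difference was -0.03 (adjusted p = 0.973). Without morula C the difference was -2.93 (adjusted p = 3.68e-05) for MOS and -0.96 (adjusted p = 0.0160, below the fold required) for FBXO43, and without both 16-cell C and morula C the differences were -2.64 (adjusted p = 1.73e-04) and -0.64 (adjusted p = 0.0585).

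Blastocysts held almost no read of either gene. MOS was at 0.01, 0.0272 and 0.0377 RPKM in blastocyst A, B and C, on 0, 1 and 1 reads. FBXO43 was at 0.0198, 0.0197 and 0.0131 RPKM, on 4, 5 and 1 reads. Of these, the 4 reads of blastocyst A and the 5 of blastocyst B for FBXO43 were the only counts above 3. For MOS 3 reads amount to 0.0515 to 0.0832 RPKM in these libraries, so its level there was not distinguishable from 0, as far as counting error goes.

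From morula to blastocyst neither gene was called, at -1.46 (SE 0.63, adjusted p = 0.0655) for MOS and -0.78 (SE 0.38, adjusted p = 0.106) for FBXO43, although no blastocyst library overlapped a morula library. In this comparison 29.2% of all genes were called and 25.3% of all genes were called lower. These values rested on morula C, without which they were -0.34 (adjusted p = 0.584) and -0.17 (adjusted p = 0.732). The added pseudocount of 1 exceeds the level in morula A and B and hides most of their distance from the blastocysts.

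Between the 8-cell stage and the blastocyst both genes fell, with a log2 fold change of -5.13 (SE 0.63, adjusted p = 6.35e-07) for MOS and -3.72 (SE 0.38, adjusted p = 8.40e-08) for FBXO43, with no overlap between the stages. These calls held in all 31 alternatives. In this comparison 56.9% of all genes were called, 19.4% higher and 37.6% lower, and with median-ratio scaling 1290 genes were higher and 1038 lower in place of 824 and 1598. The median gene moved by -0.59, and by -0.06 with that scaling. The recovered reads give larger folds than the log2(RPKM + 1) scale: scaled to library size, MOS was 2478-fold (95% Clopper-Pearson interval 686 to 20463) and FBXO43 1560-fold (848 to 3254) higher in the 8-cell than in the blastocyst libraries, on 5674 against 2 reads and 17865 against 10 reads. These intervals cover counting error only. In pooled RNA, fewer cells that hold a transcript and less of it per cell cannot be told apart.

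The stage means of MOS ran from 2-cell (48.8 ± 31.97 RPKM) through 4-cell (41.0 ± 6.72), 8-cell, oocyte, 16-cell and morula (4.36 ± 7.03) to blastocyst. Those of FBXO43 ran from 8-cell through oocyte, 2-cell (9.15 ± 0.979), 4-cell (9.13 ± 2.68), 16-cell and morula (1.11 ± 1.66) to blastocyst. The first place of the 2-cell stage for MOS rested on 2-cell B (85.5 RPKM). The stage mates 2-cell A and C were at 33.8 and 27.1 RPKM, below every 4-cell library. Among neighbours in these orders, libraries did not overlap only between oocyte and 16-cell for MOS, between 4-cell and 16-cell for FBXO43, and between morula and blastocyst for both. For each of these 4 gaps the exact permutation test (two-sided) gave p = 0.1, the lowest value open to 3 against 3 libraries, with an adjusted p of 0.3 over the 12 neighbour tests. The other 8 neighbours had exact permutation p-values of 0.2 to 1, and their libraries overlapped. With 3 libraries a stage this test cannot reach 0.05, so it settles no order. In limma the 16-cell to morula difference of MOS was called, as given above.

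The share of transcript left was next set against other falling genes. RPKM is scaled to library size, so this share compares portions of library reads and is not an amount per embryo. Relative to the 8-cell mean, the 16-cell libraries A, B and C held 19.8, 20.7 and 39.2% of MOS and 6.33, 6.10 and 19.9% of FBXO43, after the added 0.01 was taken off. In each of the 3 libraries less FBXO43 than MOS was left. Among the 759 falling genes described above the median was 45.7% over the 3 libraries (middle 50% of genes 28.8 to 79.4%). MOS, with 26.6% left, had 153 of these genes below it (20.2%), and FBXO43, with 10.8%, had 3 below it: CHST4, RARS2 and the zona pellucida gene ZP4. In the single libraries 16-cell A, B and C, 28, 15 and 4 genes lay below FBXO43 and 258, 224 and 109 below MOS, so the pooled rank is nearest to that in 16-cell C, the library with the most transcript left. As the 759 genes were chosen for a fall over an interval that contains this step, and both genes are among them, the rank is a description.

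At the morula stage, libraries A, B and C held 0.597, 1.04 and 35.5% of the 8-cell mean of MOS and 1.14, 1.07 and 24.2% of that of FBXO43. In morula A and B both genes were thus between 0.597 and 1.14%, with 43 and 65 of the 759 genes below MOS and 80 and 66 below FBXO43. In morula C, by contrast, 229 genes lay below MOS and 111 below FBXO43. The median of the 759 genes was 23.2% in morula A, 21.7% in morula B and 52.5% in morula C.

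**Figure D2:**
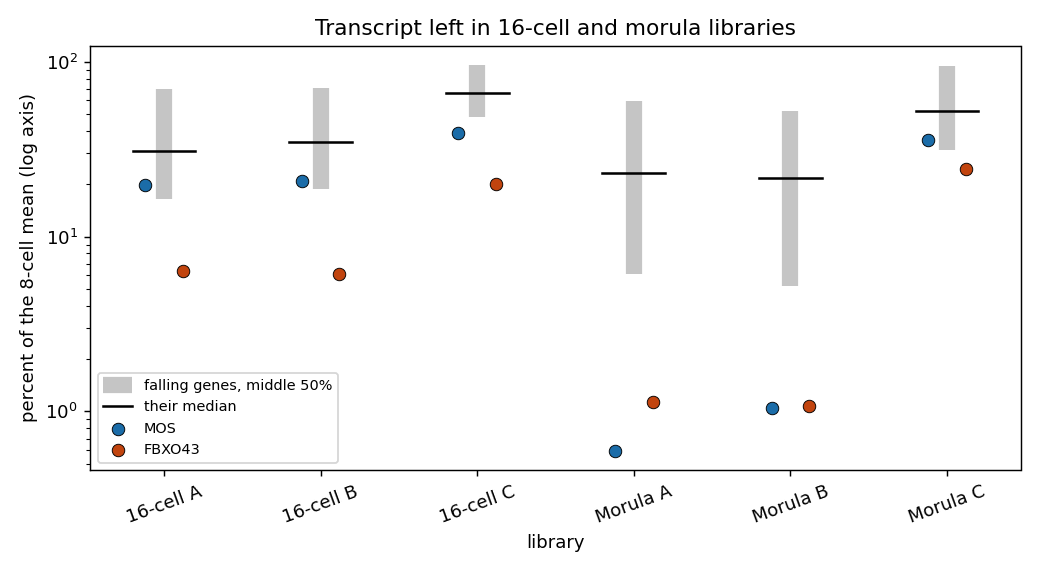
RPKM of MOS and FBXO43 in each 16-cell and morula library as percent of the 8-cell mean (log axis), which is not an amount per embryo. Grey bars span the middle 50% of 759 genes that fell from 8-cell to blastocyst and black bars give their median. FBXO43 lies below MOS and below the grey bar in all 3 16-cell libraries, both genes are near 1% in morula A and B, and both are above 20% in morula C.

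Whether the 2 genes changed in step was asked with their ratio inside each library, which does not depend on how libraries are scaled. FBXO43 amounted to 24.1, 51.4 and 24.2% of the MOS RPKM in the oocyte libraries. It amounted to 30.1, 9.63 and 33.2% at the 2-cell stage and to 24.6, 18.1 and 23.3% at the 4-cell stage. The low 9.63% belongs to 2-cell B, the library with high MOS. The share was 42.4, 39.3 and 26.7% at the 8-cell stage, above every 4-cell library, and 11.4, 10.5 and 18.0% at the 16-cell stage, below every 8-cell library. In morulae it was 67.8, 36.4 and 24.2%, above every 16-cell library, but morula A and B rest on 12 and 9 MOS reads. The FBXO43 span includes introns, so only changes of this share between stages, not its size, can be read. With 0 to 1 MOS reads in blastocysts no share was formed there.

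Tested as log2((FBXO43 + 1)/(MOS + 1)), the ratio differed by 0.65 from 4-cell to 8-cell, by -0.72 from 8-cell to 16-cell and by 1.45 from 16-cell to morula, positive values meaning relatively more FBXO43 at the later stage. The exact permutation test (two-sided) gave p = 0.1 for each of these differences, again the lowest possible, and an adjusted p of 0.16 over the 8 comparisons, so none reached 0.05. The change from 8-cell to 16-cell was 0.05 with a pseudocount of 5, while in RPM it was -1.44. From morula to blastocyst and from 8-cell to blastocyst the ratio differed by 0.69 and 1.41 with the same p, but by -0.81 and -1.55 in RPM, because both values approach the pseudocount when both genes are near 0. From oocyte to 2-cell, from 2-cell to 4-cell and from oocyte to 8-cell the ratio differed by -0.53, 0.04 and 0.16, with exact permutation p-values of 0.6, 1 and 0.8. Without 2-cell B the ratio differed by 0.02 from oocyte to 2-cell and by -0.51 from 2-cell to 4-cell.

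**Figure D3:**
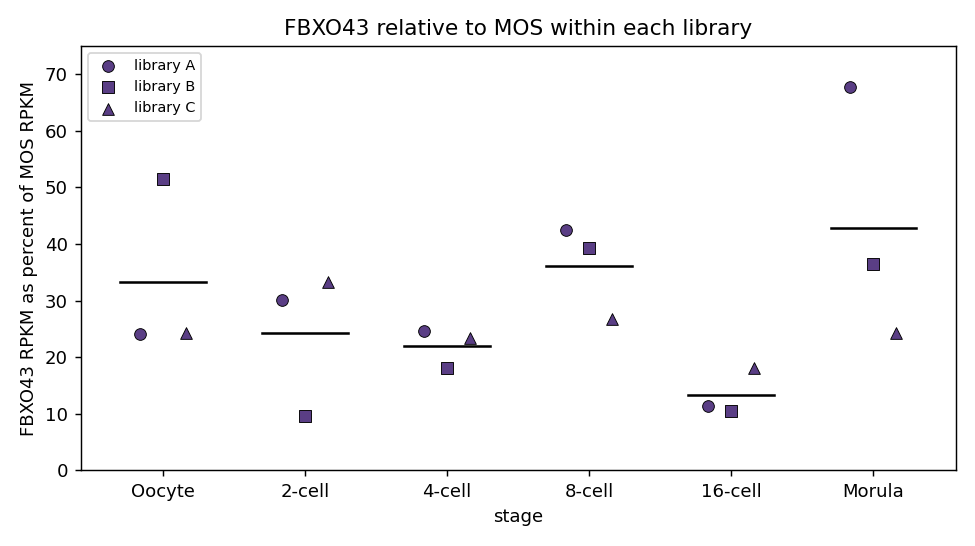
FBXO43 RPKM as percent of MOS RPKM in each library of 6 stages, with a black bar for the mean of the 3 libraries. The 8-cell libraries (26.7 to 42.4%) lie above the 16-cell libraries (10.5 to 18.0%), and 2-cell B is the lowest point at 9.63%.

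Within the 12 libraries from oocyte to 8-cell, the log2 values of MOS and FBXO43 had a Pearson r of -0.19 (Spearman rho -0.09), and an r of 0.01 without 2-cell B. Within the 9 later libraries r was 0.94 (rho 0.88), where both genes ran from 16-cell to blastocyst levels. When the 2765 tested genes with a symbol were ranked by the correlation of their log2(RPKM + 1) with MOS over the 21 libraries, FBXO43 was number 90 in the order, and MOS was number 182 for FBXO43. The closest profiles to MOS were those of SGMS2 (r 0.988), GPR84 (0.981), TRIM59 (0.979), PYGO1 (0.979), HBEGF (0.979) and the zona pellucida gene ZP2 (0.977). The closest to FBXO43 were those of ADD3 (0.991), ARID4A (0.990), CENPJ (0.985), SYCP2 (0.985), TUBE1 (0.985) and DYNC1I2 (0.984). All points of these correlations share their library and its depth. Over the 21 libraries MOS and FBXO43 had an r of 0.94 with each other, where the median r of the ranked genes was 0.48 to MOS and 0.47 to FBXO43. Without 16-cell C and morula C, FBXO43 was number 100 for MOS and MOS number 222 for FBXO43. Among the closest profiles ZC2HC1A then took the place of ZP2 for MOS, and WDR76 that of CENPJ for FBXO43. The other names stayed.

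In the order of action, the kinases downstream of MOS had low RPKM values. These are divided by long gene spans (73292 bp for MAP2K1, 99369 bp for RPS6KA3), so their size cannot be set against that of MOS. In RPM the 8-cell mean of MOS was 35.9 ± 4.75 and that of MAP2K1 80.9 ± 12.4. Values in RPM are not corrected for any length, so they do not rank these transcripts by amount either. Of 8 other genes listed for the cascade, 6 were found and 1, MAP2K1, passed the filter of at least 1 RPKM in at least 3 libraries. MAP2K1, the kinase that MOS phosphorylates, was at 1.11 ± 0.170 RPKM at the 8-cell stage and 0.198 ± 0.187 RPKM at the 16-cell stage. The difference was -0.83 (SE 0.16, adjusted p = 2.35e-04), which misses the fold required, but in RPM it went from 80.9 ± 12.4 to 13.8 ± 13.7, a called change of -2.85 (adjusted p = 7.68e-04). The RSK gene RPS6KA3 stood at 22.7 ± 4.01 RPM in 8-cell and 14.8 ± 2.18 RPM in 16-cell libraries, a difference of -0.58 (adjusted p = 0.166), and RPS6KA1 had 0 to 41 reads in any library.

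Among FBXO43's family, partners and controllers, 17 of 23 other listed genes were found and 5 tested. FBXO5 (EMI1), the paralog that inhibits the same ligase in mitotic cycles, was at 36.6 ± 4.93 RPKM in oocytes, 19.0 ± 4.87 at the 8-cell stage and 8.997 ± 4.24 at the 16-cell stage. It was at 20.3 ± 14.5 RPKM in morulae and 2.43 ± 1.37 RPKM in blastocysts, where FBXO43 was at 0.0175 RPKM. Its fall from 8-cell to blastocyst was -2.60 (adjusted p = 3.10e-05). From 8-cell to 16-cell FBXO5 was called at -1.07 (adjusted p = 0.0460), a call lost in 14 of the 21 fits that left out a library and in 6 of the 10 other alternatives, with adjusted p-values up to 0.237. PLK1, a kinase that marks FBXO43 for destruction, was at 1.09 ± 0.0833 RPKM at the 8-cell stage and 0.514 ± 0.0584 RPKM at the 16-cell stage, a difference of -0.47 (adjusted p = 0.00590) that misses the fold required.

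Of the anaphase-promoting complex and its activators, the target of FBXO43, 9 of 15 genes found were tested. From 8-cell to 16-cell 1 was called higher and 1 lower, where 19.4% and 15.9% of all genes were. UBE2C, a ubiquitin-conjugating enzyme that works with this ligase, rose from 43.3 ± 14.9 to 193 ± 89.2 RPKM (2.09, adjusted p = 0.00695) and was at 10.6 ± 11.5 RPKM in blastocysts. ANAPC13, a small subunit of the complex, fell from 11.9 ± 3.24 to 4.43 ± 4.64 RPKM (-1.54, adjusted p = 0.00659), a difference of -0.93 with a pseudocount of 5, which misses the fold required. From 8-cell to blastocyst ANAPC15, UBE2C and CDC27 were lower, by -5.38, -2.52 and -2.28. ANAPC15 and CDC27 are subunits of the complex, and the CDC27 difference was -0.88 with a pseudocount of 5.

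Around CDK1 and cyclin B, the kinase that the arrest keeps active, 6 of 10 genes found were tested. CDK1 itself rose from 3.19 ± 0.371 RPKM in oocytes to 13.9 ± 1.30 at the 8-cell stage (1.83, adjusted p = 0.00919) and to 46.6 ± 27.5 at the 16-cell stage (1.50, adjusted p = 0.0120). The second rise was not called without 16-cell A (adjusted p = 0.0869). CDK1 thus went up where MOS and FBXO43 went down, and by the blastocyst it was at 4.16 ± 4.43 RPKM. From 8-cell to 16-cell MASTL, the Greatwall kinase that shields CDK1 substrates from their phosphatase, fell from 3.87 ± 0.973 to 0.581 ± 0.278 RPKM (-1.62, adjusted p = 1.20e-05).

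The cyclin CCNB2 fell over the same step by -1.34 (adjusted p = 0.0168), and the CDK1-activating phosphatase CDC25C by -1.02 (adjusted p = 0.00596). The CCNB2 call was lost without 16-cell A or 16-cell B (highest adjusted p 0.0868), and that of CDC25C without 8-cell A, 8-cell B, 16-cell A or 16-cell B (smallest difference -0.89). With a pseudocount of 5 the differences of MASTL, CCNB2 and CDC25C were smaller than 1 in size, so none was called, and with median-ratio scaling that of CDC25C was -0.86. By the blastocyst all 6 were lower than at the 8-cell stage, where 37.6% of all genes were lower, led by CKS1B (-3.18), CCNB2 (-3.07) and CKS2 (-3.03), where CKS1B and CKS2 are small CDK-binding proteins. The CDK1 call in that comparison was lost with median-ratio scaling (-1.02, adjusted p = 0.0518), and the MASTL call with a pseudocount of 5 (-0.80).

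In the set of separase, securin and cohesin protection, 7 of 10 genes found were tested. Separase itself (ESPL1) stayed below the filter, and securin (PTTG1) carried no row under its symbol. SGO1, a shugoshin that protects cohesin at centromeres, went from 52.3 ± 11.1 RPKM at the 8-cell stage to 13.2 ± 6.10 at the 16-cell stage (-1.96, adjusted p = 9.20e-04) and 1.10 ± 0.399 in blastocysts. The cohesin subunit SMC3 fell by -1.06 (adjusted p = 0.00256) and the meiotic Aurora kinase AURKC by -1.05 (adjusted p = 0.0159) from 8-cell to 16-cell. The SMC3 call was lost without 8-cell A or 16-cell A, and the AURKC call without 8-cell A, 16-cell A or 16-cell B, with smallest differences of -0.89 and -0.66. With median-ratio scaling SMC3 and AURKC differed by -0.91 and -0.93, and with a pseudocount of 5 by -0.59 and -0.51, so neither was called. In blastocysts 5 of the 7 were lower than in 8-cell embryos, against 37.6% of all genes, among them SGO1 (-4.66), the cohesin subunit RAD21 (-2.31) and the second shugoshin SGO2 (-2.28). The calls of SMC3 and AURKC in this comparison were lost with a pseudocount of 5 (-0.78 and -0.94). That of SMC3 was also lost with median-ratio scaling (-0.64).

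Among genes that control the translation and poly(A) tails of maternal messengers, through which MOS is made during maturation, 7 of 17 found were tested. ZAR1L, an RNA-binding protein of the oocyte, fell from 6.95 ± 0.911 to 2.42 ± 2.74 RPKM (-1.49, adjusted p = 0.00818) from 8-cell to 16-cell, a call lost without 16-cell A or 16-cell B (highest adjusted p 0.0566) or with a pseudocount of 5 (-0.74). BTG4, an adaptor that brings the deadenylase to maternal messengers, went from 174 ± 20.1 RPKM in 8-cell embryos to 0.0327 ± 0.0263 RPKM in blastocysts (-7.40), and ZAR1L (-2.93) and the deadenylase subunit CNOT7 (-2.46) were lower too. Of 9 genes listed for egg activation all were found and 1 was tested, with no call. PLCZ1, the sperm phospholipase that starts the calcium signal, had 0 to 13 reads in any library, so its stages were not compared. It was listed at 0.01 RPKM, the added value, in every morula and blastocyst library. Its highest stage mean was 0.0126 ± 0.00137 RPKM. CDC20, CCNB1, WEE2 and CPEB1 carried no row under these symbols and were not analysed here.

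Over all 7 lists, 84 of the 106 other genes were found and 36 were tested. From 8-cell to 16-cell 2 were higher and 9 lower, where 19.4% of all genes tested were higher and 15.9% lower, and the median log2 fold change was -0.72 against -0.14 over all genes. From 8-cell to blastocyst 0 were higher and 19 lower in limma, where 19.4% and 37.6% of all genes were, and the median was -1.26 against -0.59. From oocyte to 8-cell 5 were higher and 1 lower, where 8.02% and 3.48% of all genes were. Long genes fall under the filter because values are divided by the gene span: in RPM 73 of the 106 were tested, and 7 were higher and 24 lower from 8-cell to 16-cell, where 15.4% of all 10384 genes tested were higher and 30.7% lower. Over the longer interval the counts were 7 higher and 46 lower, with 18.0% and 47.9% of all genes. On the log2(RPKM + 1) scale, MOS with -1.86 and FBXO43 with -2.58 lay below 35 and 36 of the 36 other genes from 8-cell to 16-cell. This place depends on the scale. Among the genes named here, MAP2K1 (-2.85), MASTL (-2.74), SGO1 (-2.05) and ZAR1L (-2.01) lay below MOS (-1.86) in RPM, with FBXO43 at -3.30. The place among all 73 was not taken.

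**Figure D4:**
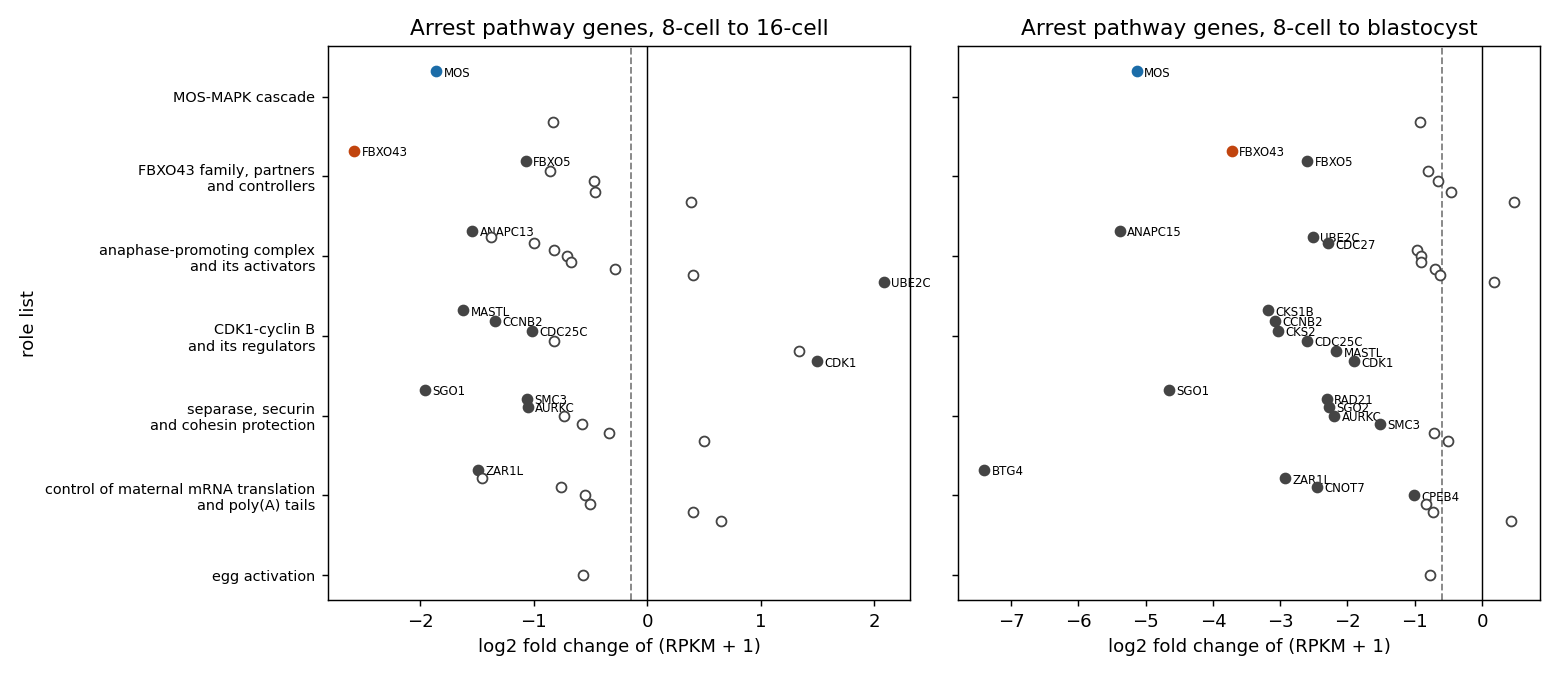
Log2 fold change of (RPKM + 1) from 8-cell to 16-cell (left) and from 8-cell to blastocyst (right) for the tested genes of 7 role lists. Filled points were called, MOS is blue and FBXO43 orange, and the dashed line is the median of all 4253 genes tested. FBXO43 has the lowest value of the left panel at -2.58, and BTG4 (-7.40) and ANAPC15 (-5.38) lie below MOS (-5.13) on the right.

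Library depth and the markers of other cells were read beside these results. Reads in the listed genes numbered between 8.47 M, in morula B, and 26.7 M, in 2-cell C, and 3 reads are the level under which a value was not told from 0. The summed RPKM of 7 oocyte genes, which include GDF9, BMP15 and ZP2, was 257 to 353 in oocytes and 403 to 465 in 8-cell libraries. It was 44.0 to 220 in 16-cell, 3.99 to 74.7 in morula and 1.04 to 6.13 in blastocyst libraries, so that it fell with MOS and FBXO43. The sum of 6 cumulus and granulosa cell genes was 3.43 to 6.20 RPKM in oocytes and 1.51 to 2.28 in 8-cell libraries. It was 1.31 to 2.96 in 16-cell, 0.0908 to 3.23 in morula and 0.180 to 0.248 in blastocyst libraries. STAR made up most of it in oocytes, and TNFAIP6 reached 1.86 RPKM in 16-cell A. FSHR, CYP19A1, INHBA and PTX3 stayed at or below 0.0638 RPKM in every library. Sums of 5 sperm or testis, 5 oviduct or uterine and 4 blood or immune cell genes did not exceed 0.756, 2.02 and 0.612 RPKM in any library. The part of carried-over cells in the values of MOS and FBXO43 was not tested.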

How the data were processed

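Titles gave the stage of each sample. The authors deposited 1 table of RPKM values, with 21 library columns and 19040 gene rows, 13323 with a symbol. Per the submitters' processing notes, the tools were STAR 2.5.3a, FastQC and Partek, with no role stated. Build, annotation, counting rule and treatment of multiply mapped reads: not given in the sources used here. The lowest deposited RPKM value is 0.01 in every library. After this offset was taken off, 95.5 to 97.1% of the low values of a library, times the span of the gene, were whole multiples of 1 step within 0.05 of a step. That step gives the reads and the depth. No pair of libraries held identical values.

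The 4253 genes that reached 1 RPKM in 3 or more libraries were fitted as log2(RPKM + 1) in limma 3.58.1 (R 4.3.3; trend and robust estimation; statmod 1.5.0), in 1 model of the 7 stages without a block. Tests were two-sided, and the script was tested on simulated data with 200 changed genes. This scale understates changes of low genes. MOS reached 1 RPKM in 12 of 12 libraries up to the 8-cell stage and 4 of 9 later ones, and FBXO43 in 12 and 2, so both passed the filter through stages where they are high. Permutation tests were exact (scipy 1.17.1), and tables and figures used matplotlib 3.10.9, pandas 2.3.3 and numpy 2.4.6 in Python 3.11.15. Alternatives were a filter of 5 RPKM, no filter, pseudocounts of 0.1 and 5, quantile and median-ratio scaling, RPM (library size only, no gene span, same pseudocount and filter), array weights, fits without 16-cell C and morula C, a replicate block on the letter, and leaving out each library.

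The genes and the lists were chosen with earlier results of these data known. Named besides MOS and FBXO43 are the 6 tested genes with a symbol of most similar profile for each, up to 3 called rises and falls per list in the comparisons from 8-cell to 16-cell and to blastocyst, and 12 genes of the pathway named whatever their change. One gene that the rule selects is not reported here. CHST4, RARS2 and ZP4 were named after their values were seen. No sequence is printed.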

Additional observations from a re-analysis of the deposited data

How the results depend on the processing

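Each log2 fold change of MOS and FBXO43 was recomputed under 31 alternatives, and changes of call are given with the results. When each library was left out in turn, the MOS difference ranged from -2.15 to -1.70 from 8-cell to 16-cell and from -2.93 to -1.20 from 16-cell to morula. The first was -1.97 with a pseudocount of 0.1, the second -0.829 with a pseudocount of 5 and -1.81 without a filter. From morula to blastocyst MOS was called with a pseudocount of 0.1 (-3.32) and with a filter of 5 RPKM (-1.46), and over the left-out libraries it ranged from -2.07 to -0.34, called without morula A or without morula B. FBXO43 was called in that step with a pseudocount of 0.1 (-2.30), in RPM (-2.29) and without the same libraries, with a range from -1.08 to -0.17. Some uncalled differences changed sign. MOS from 2-cell to 4-cell was 0.0308 with median-ratio scaling and ranged from -0.40 to 0.41, the latter without 2-cell B, and from oocyte to 8-cell it was -0.14 with that scaling and ranged from -0.0165 to 0.39. FBXO43 ranged from -0.11 to 0.0863 from oocyte to 2-cell. From 2-cell to 4-cell it was 0.0856 with quantile normalization, 0.0675 with median-ratio scaling and between -0.23 and 0.15 over the left-out libraries. The FBXO43 to MOS ratio was 0.0459 from 8-cell to 16-cell with a pseudocount of 5, and in RPM -0.81 from morula to blastocyst and -1.55 from 8-cell to blastocyst. Over the left-out libraries it ranged from -0.85 to 0.0218 from oocyte to 2-cell, from -0.51 to 0.36 from 2-cell to 4-cell and from -0.0153 to 0.51 from oocyte to 8-cell. The cause was not tested.

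Of the genes on the 7 lists, those higher from oocyte to 8-cell numbered 3 with a filter of 5 RPKM, 3 with quantile normalization, 2 with median-ratio scaling and 17 in RPM, in place of 5. Those lower numbered 3, 4 and 2 with the last 3 of these, 3 with array weights and 3 without 16-cell C and morula C, in place of 1. From 8-cell to 16-cell 5 were lower with median-ratio scaling and 24 in RPM, in place of 9, and 7 higher in RPM, in place of 2. From 8-cell to blastocyst 1, 2 and 7 were higher with quantile normalization, median-ratio scaling and in RPM, in place of 0, and 46 lower in RPM, in place of 19.

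Over all genes, 1502 were called from 8-cell to 16-cell, 613 with a pseudocount of 5 and 4789 in RPM. From 8-cell to blastocyst 2422, 1017 and 6848 were called, from morula to blastocyst 1244, 513 and 3727, from 16-cell to morula 683, 319 and 1768, from oocyte to 8-cell 489, 157 and 2209, and from oocyte to 2-cell 203, 48 and 1501 under the same settings. From 4-cell to 8-cell 29 were called, 12 without 8-cell B and 194 with array weights, and from 2-cell to 4-cell 0, and 5 with array weights.

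The labels do not say that a letter joins libraries of different stages, and 8 of 21 libraries correlated best with their own letter. Same-letter pairs had an r of -0.41 to 0.32 (median -0.02), and different-letter pairs one of -0.42 to 0.43 (median -0.003). With the letter as a replicate block, MOS from 8-cell to 16-cell had -1.86 (adjusted p = 0.0171) and FBXO43 -2.58 (adjusted p = 3.14e-05), MOS from 16-cell to morula had -1.81 (adjusted p = 0.0415), and no call of the 2 genes changed.

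With 3 libraries per stage and 9 to 794 MOS reads in morulae, the step after the 16-cell stage could not be sized.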

Other observations

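RPS20, a ribosomal protein gene 19.9 kb from MOS on chromosome 14, had 22.6 ± 3.50 RPKM in 8-cell and 59.1 ± 9.14 RPKM in 16-cell embryos, a rise in limma of 1.35 on the log2(RPKM + 1) scale (adjusted p = 0.00607). It was at 283 ± 159 RPKM in morulae and 119 ± 40.2 RPKM in blastocysts, where MOS had 0 to 1 reads. RPS20 may share reads with near-identical copies elsewhere, which makes its level uncertain. The 3 other genes next to MOS and FBXO43 stayed below the filter and were not tested. PLAG1, a zinc-finger gene 30.7 kb from MOS on the other side, was at 0.159 ± 0.0469 RPKM at the 8-cell stage, 0.0478 ± 0.0233 RPKM at the 16-cell stage and 0.0122 ± 0.00284 RPKM in blastocysts. RGS22, 38.6 kb from FBXO43, was at 0.0860 ± 0.00430, 0.0285 ± 0.00312 and 0.0113 ± 0.000994 RPKM at these stages, so both had their highest stage mean at the 8-cell stage and their lowest in blastocysts. POLR2K, 13.5 kb from FBXO43, was at 0.167 ± 0.128, 0.555 ± 0.278 and 0.365 ± 0.337 RPKM.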
